A study of Mus musculus with 12 samples.

Results

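The comparison described here set c-kit-positive against c-kit-negative cells within the mouse leukaemias labelled wild type. It used 6 of the 12 arrays of the series, namely both sorted fractions of leukaemias 73, 75 and 79, which were chosen by their labels and paired by the leukaemia number that both titles carry. All 22180 genes measured were considered, and the 19152 genes above a low-value filter were tested. All 6 leukaemias of the series were induced by MLL-AF9. Leukaemias 73, 75 and 79 carry the label WT under Dnmt3b overexpression, and leukaemias 81, 83 and 85 carry the label Dnmt3b-knockin. Each leukaemia gave 1 fraction sorted by FACS as ckit-pos and 1 as ckit-neg, so that 4 groups of 3 arrays resulted. Titles and descriptions name bone marrow while the source field names leukaemic spleen, so the tissue is not settled. Age, sex and strain of the animals, the gates of the sort and whether each number stands for a separate mouse are not given in the sources used here. If the numbers were not separate mice, the p-values would measure only the spread between these samples.

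c-kit, encoded by Kit, is the receptor tyrosine kinase for stem cell factor and marks immature blood cells and mast cells. MLL-AF9 joins the amino-terminal part of the histone methyltransferase MLL to AF9 and keeps Hoxa genes and Meis1 active in myeloid progenitors. In normal myeloid development, promyelocytes load the primary granules with myeloperoxidase and serine proteases. Later stages divide less and make secondary granule proteins, gelatinase and surface receptors of neutrophils, or the lysosomal and scavenger proteins of monocytes. In leukaemias of this kind, c-kit is used as a marker of the immature fraction.

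In the c-kit-positive fraction, 1525 of 19152 genes (7.96%) were higher and 584 (3.05%) lower than in the c-kit-negative fraction of the same leukaemia, together 2109 genes (11.0%), at a Benjamini-Hochberg adjusted p under 0.05 in limma. The value of each gene is a log2 intensity, so a difference of 1 is a doubling. The counts of gene lists below compare with these shares of 7.96% higher and 3.05% lower. Median differences were 0.49 for the higher and -0.51 for the lower genes. Of 111 genes that passed and differed at least 2-fold, 37 were higher and 74 lower. The median over all genes tested was -0.03. Of these calls, 2102 had the same sign in all 3 leukaemias. Centring each array on its own median gave 2460 calls, of which 83.5% were higher, against 72.3% in the values as deposited. The fit without the pairing called 147 genes, 76 higher and 71 lower. Without leukaemia 73, 75 or 79 the pairs numbered only 2, and 582, 434 and 1205 genes passed. No gene called from all 3 pairs changed sign in any of these fits. Dropping the pairing leaves every difference as it is, and dropping a leukaemia cannot turn the 2102 calls with the same sign throughout. For these only the centring could have changed the sign. In sorted but bulk RNA, fewer cells of a type and less RNA per cell cannot be told apart.

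**Figure D1:**
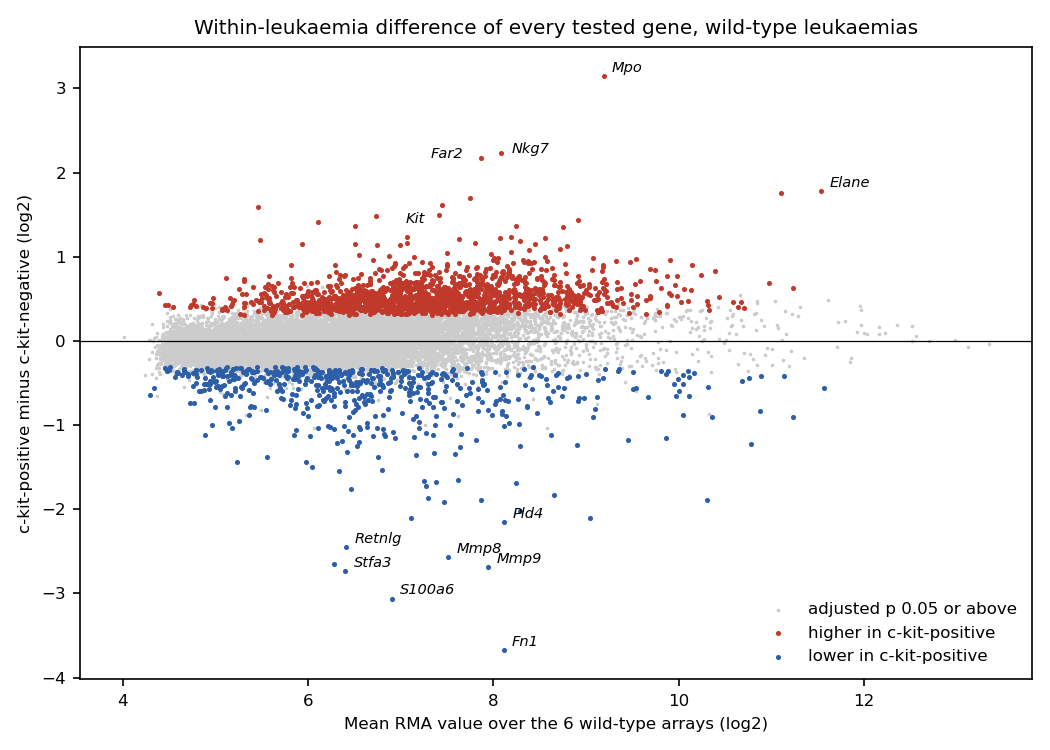
Difference between the c-kit-positive and the c-kit-negative fraction (log2, mean of 3 leukaemias) of each of 19152 genes against its mean log2 value over the 6 wild-type arrays. Red points are the 1525 genes higher and blue points the 584 genes lower in c-kit-positive cells at an adjusted p under 0.05, grey points did not pass, and the extremes are Mpo at 3.15 and Fn1 at -3.68.

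Kit, the gene of the sorted receptor, checked the labels. Its log2 value was 8.01, 8.13 and 8.34 in the c-kit-positive fractions of leukaemias 73, 75 and 79, and 6.69, 6.72 and 6.57 in the c-kit-negative fractions. The fractions did not overlap, and Kit was 2.83-fold higher in positive cells (difference 1.50 ± 0.13, adjusted p = 0.000187). Here and below, ± is limma's standard error. Its spread was estimated over all 12 arrays and drawn towards that of all genes, so it is not the spread of the 3 pairs alone. Mpo, the gene of myeloperoxidase of the primary granules, had the largest rise of all genes tested. It stood at 11.43, 11.70 and 9.16 in the positive and 7.59, 8.38 and 6.87 in the negative fractions, an 8.87-fold difference (3.15 ± 0.21, adjusted p = 3.07e-05). Leukaemia 79 had the lowest level in both fractions, yet its positive cells were above every negative fraction. Fn1, which encodes fibronectin and is made by monocytes and macrophages, had the largest fall. The positive fractions were close together at 6.24, 6.31 and 6.27, whereas the negative fractions stood at 10.46, 10.24 and 9.15 (-3.68 ± 0.25, 12.8-fold, adjusted p = 3.07e-05). Mmp9, the gelatinase of late neutrophils, was 6.75, 6.22 and 6.84 in positive and 9.14, 8.34 and 10.39 in negative cells, with no overlap (-2.69 ± 0.25, adjusted p = 0.000274). The 3 within-leukaemia differences had standard deviations of 0.24 (Kit), 0.79 (Mpo), 0.70 (Fn1) and 0.76 (Mmp9). These 4 genes passed without each wild-type leukaemia in turn, with adjusted p up to 0.0032. An exact two-sided sign-flip test over the 3 pairs gave p = 0.25 for each of them, which is the smallest value that 3 pairs allow.

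**Figure D2:**
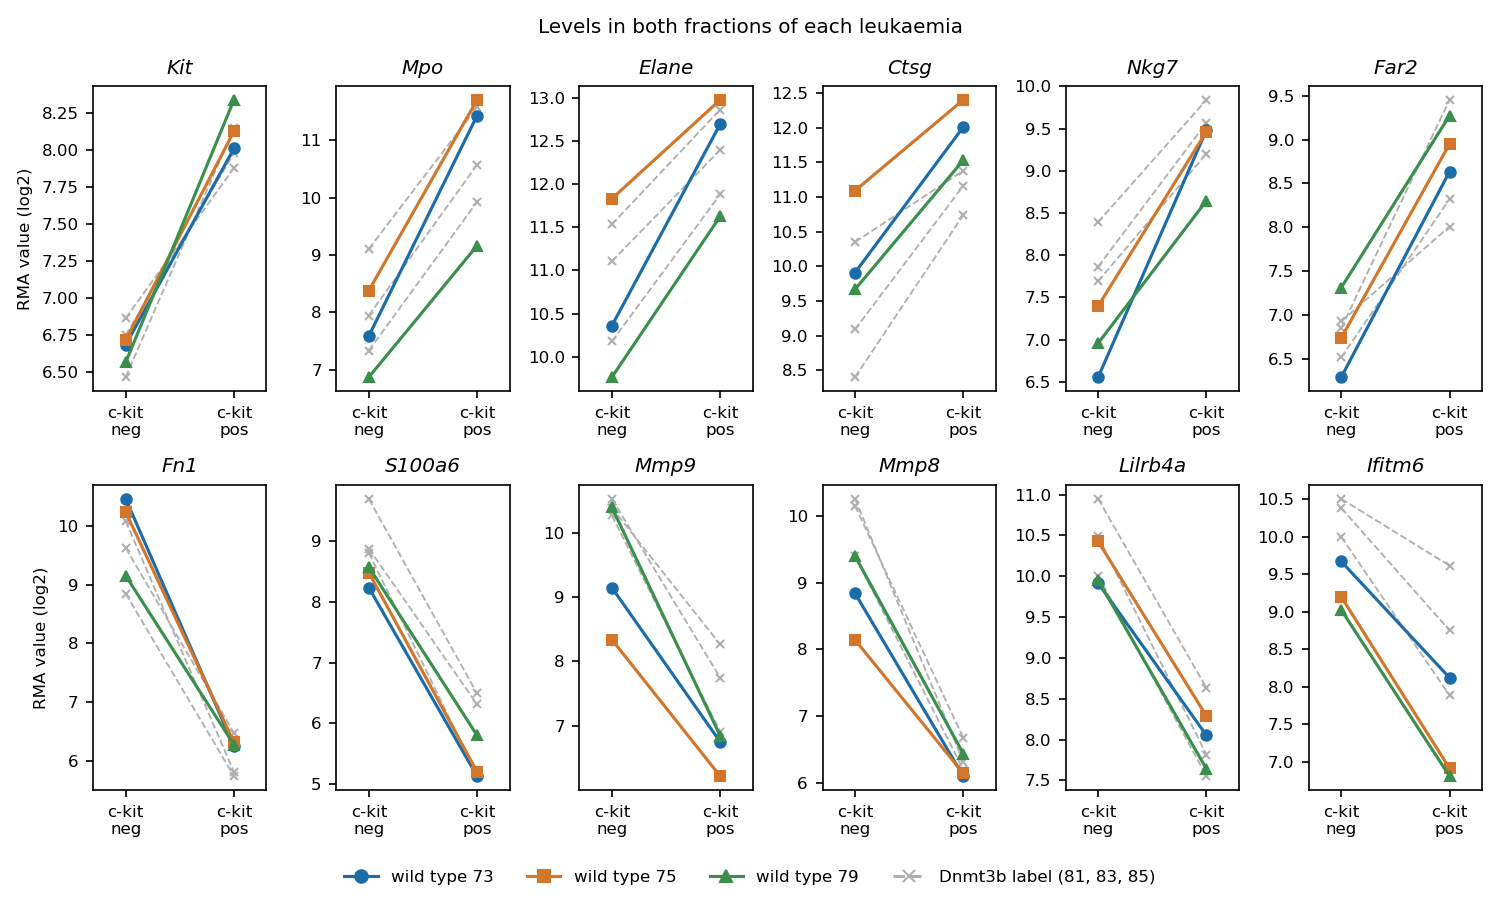
RMA values (log2) of 12 genes in the c-kit-negative and c-kit-positive fraction of each leukaemia, with a line joining both fractions. Coloured lines are wild-type leukaemias 73, 75 and 79 and grey dashed lines are the 3 Dnmt3b-labelled leukaemias, and every line rises for the 6 genes of the upper row and falls for the 6 genes of the lower row.

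Genes of the primary granules were higher in c-kit-positive cells. Of 19 such genes tested, 14 rose and 0 fell, and their median difference was 0.83. Nkg7, a membrane protein of cytolytic granules that is also found in promyelocytes, stood at 9.48, 9.46 and 8.65 in positive and 6.56, 7.40 and 6.96 in negative fractions (2.23 ± 0.18, adjusted p = 0.000108). Elane, neutrophil elastase, was higher by 2.33, 1.14 and 1.86 within leukaemias 73, 75 and 79. Its fractions overlapped across leukaemias, because the negative cells of leukaemia 75 at 11.83 were above the positive cells of leukaemia 79 at 11.63. The fit gave 1.78 ± 0.18 with an adjusted p of 0.000326. Ctsg and Prtn3, the serine proteases cathepsin G and proteinase 3, rose by 1.76 and 1.43. Ms4a3, a membrane protein of granulocyte-monocyte progenitors that stands outside the rule for named genes, was 9.85, 10.15 and 8.29 in positive against 7.78, 8.66 and 7.81 in negative cells (1.35 ± 0.22, adjusted p = 0.00369). Cst7 and Serpinb1a, inhibitors of granule proteases, rose by 1.03 and 0.99, whereas of all 19 protease inhibitor genes 2 rose and 7 fell (median -0.05). The lectin receptor Clec12a rose by 0.83 and the calcium-binding chaperone Calr by 0.84. Calr did not pass when leukaemia 73 or 75 was left out (adjusted p = 0.064 and 0.082). Members that did not pass included Ctsc, the protease that activates the granule enzymes, at -0.40 (adjusted p = 0.0985). Without leukaemias 73, 75 and 79 the list had 9, 9 and 13 members higher, and without the pairing 3.

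The promoters of Mpo and Elane are shown because the primary granule genes moved together and both contain a purine-rich element of ETS-family factors such as PU.1. The windows run from 250 bases before the RefSeq start to 20 bases after it (GRCm38.p6), at chr11:87793534-87793803 on the plus strand for Mpo and chr10:79886062-79886331 on the plus strand for Elane. Capitals mark the letters GAGGAAGT, which start 224 and 85 bases before the start site.
Mpo: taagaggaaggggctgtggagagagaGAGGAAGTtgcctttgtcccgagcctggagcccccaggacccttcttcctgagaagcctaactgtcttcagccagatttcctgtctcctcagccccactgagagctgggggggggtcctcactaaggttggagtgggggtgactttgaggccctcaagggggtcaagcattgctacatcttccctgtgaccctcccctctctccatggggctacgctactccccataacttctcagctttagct
Elane: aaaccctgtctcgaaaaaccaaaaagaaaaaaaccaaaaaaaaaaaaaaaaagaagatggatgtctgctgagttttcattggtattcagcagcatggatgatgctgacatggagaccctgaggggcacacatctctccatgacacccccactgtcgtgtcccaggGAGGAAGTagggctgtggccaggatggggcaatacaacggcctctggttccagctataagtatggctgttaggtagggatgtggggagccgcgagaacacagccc
GAGGAAGT, searched on both strands of the 300-base windows of RefSeq, was found in 4 of 20 promoters of 17 primary granule genes, in 7 of 46 late neutrophil promoters (15.2%) and in 3.20% of all 32851 promoters. Among promoters of genes that were higher it was found in 2.80%, and among those of genes that were lower in 7.23%. A match describes the letters only.

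The remaining genes with the largest rises had diverse roles. Far2, a reductase that makes fatty alcohols, was 8.63, 8.95 and 9.27 in positive and 6.29, 6.74 and 7.31 in negative fractions (2.17 ± 0.21, adjusted p = 0.00029). Nedd4, a ubiquitin ligase, stood at 8.77, 8.55 and 8.49 against 6.95, 7.06 and 6.70, with differences of 1.82, 1.49 and 1.80 (1.70 ± 0.12, adjusted p = 4.25e-05). Mgam, an alpha-glucosidase, rose by 1.62, and Retsat, a saturase acting on retinol, by 1.48. B4galt6, which makes lactosylceramide, rose by 1.36. Tshr, the thyrotropin receptor, had the same mean difference of 1.36, but its positive fraction in leukaemia 79 at 6.48 lay below the negative fraction of leukaemia 75 at 6.53. H2bc9 and H4c17, replication-dependent histone genes, rose by 1.59 and 1.41. All of these passed without each wild-type leukaemia in turn, with adjusted p up to 0.028.

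Genes of late neutrophil maturation were lower in c-kit-positive cells. Of 49 tested, 31 fell and 0 rose, with a median difference of -0.83. Mmp8, the neutrophil collagenase, was near 6 in all positive fractions (6.10, 6.14 and 6.43) and stood at 8.84, 8.14 and 9.40 in negative fractions (-2.57 ± 0.17, adjusted p = 3.07e-05). Lyz2, lysozyme, was 7.30, 8.18 and 7.74 against 9.57, 9.90 and 9.25 (-1.83 ± 0.13, adjusted p = 4.13e-05). Retnlg, a resistin-like secreted protein of neutrophils, stood at 5.16, 5.05 and 5.35 against 8.26, 6.44 and 8.19 (-2.45 ± 0.36, adjusted p = 0.00259). Stefins, inhibitors of cysteine proteases, also fell, with Stfa3 at -2.74, Stfa2 at -2.65 and Stfa2l1 at -1.89. Receptors and integrins included Fpr2, a formyl peptide receptor, at -1.13 and Itgam, which encodes CD11b, at -0.90. Anxa1, annexin A1 of the gelatinase granules, fell by 1.18 on the log2 scale, with differences of -1.15, -1.36 and -1.05.

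The abundant granule proteins of the late list were less uniform. S100a8 stood at 11.08, 9.93 and 9.50 in positive and 11.55, 11.00 and 11.65 in negative fractions, and S100a9 at 10.25, 8.75 and 8.85 against 10.57, 9.94 and 10.81. Together they form calprotectin, and both fell by over 1 log2 unit on average (-1.23 ± 0.22 and -1.15 ± 0.22, adjusted p = 0.00665 and 0.00847). In both genes the positive cells of leukaemia 73 reached the range of the negative cells, and S100a9 did not pass without leukaemia 75 (adjusted p = 0.072). Secondary granule genes outside the rule for named genes are given for their role. Ltf, lactoferrin, was lower in all 3 pairs, at 6.57, 5.72 and 5.90 against 7.62, 6.82 and 7.88 (-1.38 ± 0.24, adjusted p = 0.0056). Camp, the cathelicidin precursor, was among 7 called genes with mixed signs, with differences of 0.24, -1.22 and -1.65 in leukaemias 73, 75 and 79. Its adjusted p of 0.0485 became 0.263 without leukaemia 75 and 0.303 without leukaemia 79. Ngp, neutrophilic granule protein, hardly differed in leukaemia 73 (-0.06) and was lower by 1.15 and 1.29 in the others (adjusted p = 0.0172, and 0.150 and 0.118 without leukaemia 75 or 79). Ly6g, the surface antigen of mature mouse neutrophils, was lower in every pair (5.26, 5.17 and 5.46 against 6.88, 6.33 and 7.16, adjusted p = 0.00128). Csf3r, the G-CSF receptor, did not pass (0.17 ± 0.09, adjusted p = 0.274). Without leukaemias 73, 75 and 79 the late neutrophil list had 25, 19 and 24 members lower, and without the pairing 11. Without leukaemia 79 it also had 1 member higher.

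Promoters of 2 late neutrophil genes are shown for comparison, with letters of the type that C/EBP factors bind in capitals. Mmp8 lies at chr9:7558179-7558448 on the plus strand and Ltf at chr9:111019042-111019311 on the plus strand (GRCm38.p6, windows as above), and the matches to TTGCNNAA, where N is any base, start 19 and 75 bases before the start site. The match in Ltf is on the opposite strand, so its printed capitals are the reverse complement.
Mmp8: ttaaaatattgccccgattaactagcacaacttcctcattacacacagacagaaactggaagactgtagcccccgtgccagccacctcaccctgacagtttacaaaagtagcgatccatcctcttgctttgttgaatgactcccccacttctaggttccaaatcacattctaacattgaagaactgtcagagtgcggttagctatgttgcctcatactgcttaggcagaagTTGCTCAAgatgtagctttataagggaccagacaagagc
Ltf: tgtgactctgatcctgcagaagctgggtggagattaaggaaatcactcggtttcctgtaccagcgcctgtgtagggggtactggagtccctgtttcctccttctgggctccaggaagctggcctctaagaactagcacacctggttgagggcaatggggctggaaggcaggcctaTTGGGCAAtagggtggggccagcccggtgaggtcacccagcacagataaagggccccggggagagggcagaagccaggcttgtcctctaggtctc
TTGCNNAA was found on either strand in 13 of 46 late neutrophil promoters (28.3%), in 5 of 20 primary granule promoters and in 10.8% of all promoters. Its share was 11.5% among genes that were lower and 8.60% among genes that were higher.

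Monocyte and macrophage genes fell in part. Of 37 tested, 13 fell and 1 rose, with a median of -0.27. Beside Fn1, the chemokine Ccl6 stood at 4.48, 4.46 and 4.61 in positive and 6.34, 6.05 and 5.48 in negative fractions (-1.44 ± 0.15, adjusted p = 0.000458). Lgals3, galectin-3, was 6.45, 6.65 and 6.96 against 8.09, 8.01 and 7.97 (-1.34 ± 0.15, adjusted p = 0.000583). Csf1r, the M-CSF receptor of the monocyte lineage, was 6.49, 6.72 and 6.52 against 7.80, 8.23 and 7.11, and the smallest gap was that of leukaemia 79 (-1.14 ± 0.16, adjusted p = 0.00236). Clec4a3, a C-type lectin receptor, fell by 0.79 on the log2 scale. Vcam1, an adhesion receptor, was the only member that rose (0.76, adjusted p = 0.00529). Ctss, the lysosomal protease cathepsin S, fell by 1.73 but did not pass when leukaemia 73 or 75 was left out (adjusted p = 0.063 and 0.074). Without leukaemias 73, 75 and 79 the list had 5, 6 and 14 members lower, and without the pairing 4.

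Lysosomal genes went both ways, with 3 of 30 higher, 5 lower and a median of -0.08. Cd63, a tetraspanin of late endosomes and primary granules, was 9.19, 9.47 and 9.44 in positive and 7.42, 8.19 and 9.08 in negative cells (1.13 ± 0.20, adjusted p = 0.00544), and its call was lost without leukaemia 75 (adjusted p = 0.0602). Pld4, an endolysosomal exonuclease, was 6.32, 6.93 and 7.88 against 9.39, 10.05 and 8.13. Its difference of -2.15 ± 0.43 thus rested on leukaemias 73 and 75, and without either of these the adjusted p was 0.096 and 0.11. The cathepsins Ctsh and Ctsl fell by 0.86 and 0.60, and both calls were lost without leukaemia 73 or 75 (adjusted p 0.13 to 0.18). The glucosidase Gaa and the phospholipase family member Pld3 rose by 0.41 each, and both calls were lost without leukaemia 73, 75 or 79 (adjusted p 0.056 to 0.19). Without leukaemia 73 or 75, 0 lysosomal genes were lower.

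Inhibitory and paired immunoreceptors fell in 8 of 29 cases and rose in 1, with a median of -0.24. Without leukaemias 73, 75 and 79 the lower count was 4, 3 and 6, with the block as a random term 5 and without the pairing 3. Lilrb4a, an inhibitory receptor of the leukocyte immunoglobulin-like family, was 8.05, 8.29 and 7.64 in positive and 9.92, 10.43 and 9.95 in negative fractions. Its differences were -1.86, -2.14 and -2.31 (mean -2.10 ± 0.11), and its adjusted p of 8.76e-06 was the smallest of the comparison, shared with S100a6. Pirb, a paired inhibitory receptor for MHC class I, stood at 5.75, 6.87 and 6.64 against 8.23, 7.90 and 8.09 (-1.66 ± 0.21, adjusted p = 0.00128). Cd300lf fell by 0.65 on the log2 scale, and Siglecf, a sialic acid receptor, rose by 0.54 but did not pass when leukaemia 73, 75 or 79 was left out (adjusted p = 0.16, 0.051 and 0.15).

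Genes of adhesion, matrix and chemotaxis were mostly lower in positive cells where they passed. Of 36 adhesion genes 11 fell and 2 rose (median -0.17). Tgfbi, an extracellular matrix protein, was 6.87, 6.94 and 6.94 in positive and 9.22, 9.38 and 7.82 in negative cells (-1.89 ± 0.23, adjusted p = 0.000981). Thbs1, thrombospondin, fell by 1.92, with a small difference of -0.84 in leukaemia 75, and its adjusted p was 0.064 without leukaemia 73. Itgb2, the common beta chain of the leukocyte integrins, fell by 0.67 and Itga6, a laminin receptor chain, rose by 0.53, a call lost without leukaemia 75 (adjusted p = 0.066). Matrix proteases fell in 6 of 20 cases and rose in 0. Beside Mmp8 and Mmp9 these included Adam8 at -1.12 and Plaur, the urokinase receptor, at -0.89. Of 24 chemoattractant receptors, 6 fell and 0 rose, among them C5ar1, the complement C5a receptor (-0.82, adjusted p = 0.0026), and Cxcr2, the receptor of neutrophil chemokines. Cxcr2 fell by only 0.42 and did not pass when leukaemia 73, 75 or 79 was left out (adjusted p = 0.12, 0.068 and 0.26). Without leukaemia 75 the counts of lower genes were 5 for adhesion, 4 for matrix proteases and 2 for chemoattractant receptors, and 4, 4 and 3 without leukaemia 73. Among 13 S100 genes, 5 fell and 1 rose, and 3, 2 and 4 fell without leukaemias 73, 75 and 79. S100a6, calcyclin, was 5.13, 5.20 and 5.80 in positive and 8.24, 8.49 and 8.58 in negative fractions (-3.06 ± 0.17, adjusted p = 8.76e-06), and S100a1 rose by 0.62, a call lost without leukaemia 73 or 75 (adjusted p = 0.0861 and 0.066).

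Growth factor and cytokine receptors fell in 6 of 28 cases (21.4%, against 3.05% of all genes) and rose in 3 (10.7%, against 7.96%). The genes that rose included Kit, whose receptor defined the sort. Without leukaemia 73 or 75, 3 fell. Il13ra1, a chain of the IL-4 and IL-13 receptors, was 5.63, 5.36 and 5.77 in positive and 7.92, 7.58 and 6.53 in negative fractions (-1.75 ± 0.24, adjusted p = 0.00194). Il17ra fell by 0.85 and Ifngr1, a chain of the interferon-gamma receptor, rose by 0.61. Igf1r, the IGF1 receptor, rose by 0.65, with adjusted p of 0.11 and 0.12 without leukaemia 73 or 75.

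Beside Kit, no gene of the stem and progenitor list passed. Of 26 tested, 1 rose and 0 fell, and the median difference was -0.02. Cd34, a surface antigen of blood progenitors that the rule does not name, was 7.46, 7.28 and 9.54 in positive and 8.68, 7.95 and 8.79 in negative cells. It was thus lower in leukaemias 73 and 75 and higher in leukaemia 79 (-0.38, 95% interval -0.95 to 0.20, adjusted p = 0.394). Without leukaemia 79 Cd34 differed by -0.94 and passed (adjusted p = 0.00499), and without leukaemia 73 it differed by 0.043. The list had 1 gene higher and 2 lower without leukaemia 79. Genes kept active by MLL-AF9 had small differences, with 4 of 21 higher (19.0%, against 7.96% of all genes), 0 lower and a median of 0.20. In all 3 pairs 13 of them were higher and 1 was lower. Called higher were 1, 1 and 2, and called lower 0, 0 and 1, without leukaemias 73, 75 and 79. The count of higher genes was 6 with each array centred on its median, 2 under quantile normalization and 0 without the pairing. Myb, a transcription factor of proliferating progenitors, was 10.54, 10.62 and 10.63 against 9.35, 9.85 and 9.90 (0.90 ± 0.11, adjusted p = 0.00114). Hoxa9 was 8.35, 8.79 and 8.43 against 7.53, 8.25 and 8.03 (0.59 ± 0.11, adjusted p = 0.00759), and its call was lost without leukaemia 73 or 75 (adjusted p = 0.079 and 0.059). Hoxa5 and Cdk6 rose by 0.43 and 0.41, and these calls were lost without any of the 3 leukaemias and under quantile normalization (adjusted p = 0.084 and 0.053). Meis1, the cofactor of HOXA9, differed by 0.20 with a 95% interval of -0.02 to 0.42 and did not pass.

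Transcription factors of myeloid cells split, with 5 of 37 higher and 9 lower. Without leukaemia 73 the counts were 3 and 4, and the same without leukaemia 75, and without the pairing 1 and 3. Id2, an inhibitor of basic helix-loop-helix factors, was 7.87, 7.36 and 6.97 in positive and 9.45, 9.30 and 8.51 in negative fractions (-1.68 ± 0.14, adjusted p = 0.000142). Nr4a1, an orphan nuclear receptor, fell by 1.34, the repressor Bcl6 by 0.71 and the MAX partner Mxd1 by 0.56. In the other direction, Tfec rose by 0.96 and Gfi1, a transcriptional repressor active in granulocyte development, by 0.88. Gfi1 was 8.14, 8.11 and 8.21 in positive and 7.04, 7.09 and 7.69 in negative cells (adjusted p = 0.00367). Irf8, a monocyte regulator outside the rule for named genes, was 6.49, 6.87 and 6.82 against 8.05, 8.29 and 7.11. It had an adjusted p of 0.0395, which was 0.233 and 0.222 without leukaemia 73 or 75. The general myeloid regulators, also named for their role, did not pass. Cebpa differed by 0.10 (95% interval -0.13 to 0.32), Cebpe by 0.24 (-0.06 to 0.54) and Spi1, which encodes PU.1, by -0.23 (-0.43 to -0.03, adjusted p = 0.13).

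**Figure D3:**
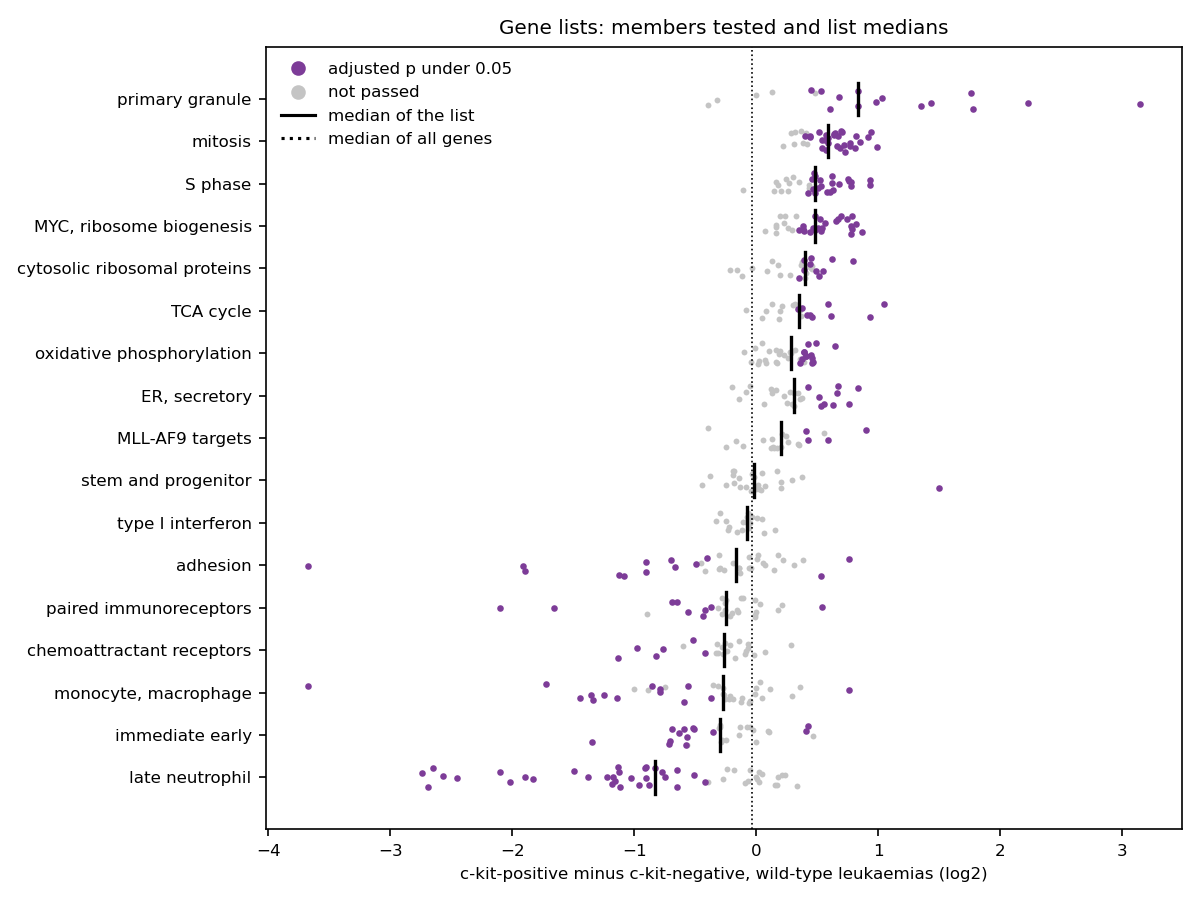
Difference between c-kit-positive and c-kit-negative cells (log2) of the tested members of 17 gene lists in the wild-type leukaemias, with purple points for members with an adjusted p under 0.05 and grey points for the others. Black bars are list medians, which run from 0.83 for primary granule genes to -0.83 for late neutrophil genes, and the dotted line is the median of all genes at -0.03.

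Cell cycle genes were higher in c-kit-positive cells. Of 37 mitosis genes 29 rose and 0 fell, with a median of 0.59, and all 37 were higher in each of the 3 leukaemias. Cdk1, the kinase that starts mitosis, was 9.04, 9.12 and 9.00 in positive and 8.12, 7.61 and 8.45 in negative fractions (0.99 ± 0.19, adjusted p = 0.00909). The positive fractions were nearly level, and most of the variation was in the negative fractions. Ect2, a cytokinesis factor, was 8.80, 9.05 and 8.96 against 8.03, 7.88 and 8.34 (0.85 ± 0.12, adjusted p = 0.00207). The mitotic kinases Aurkb and Aurka rose by 0.94 and 0.69, and Birc5, survivin of the chromosomal passenger complex, by 0.77. Aurkb did not pass without leukaemia 75 (adjusted p = 0.0622). Top2a, topoisomerase II alpha, rose by 0.77 and had the smallest difference in leukaemia 79 (0.14). Without leukaemia 73 or 75 the adjusted p of Top2a was 0.13 and 0.21, and that of Cdk1 0.058 and 0.097.

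Replication genes were higher too. Of 33 S phase genes 21 rose and 0 fell, with a median of 0.48. Mcm2, a subunit of the replicative helicase, was 8.34, 8.40 and 8.65 in positive and 7.58, 7.51 and 8.01 in negative cells (0.76 ± 0.11, adjusted p = 0.00243). Pole, the leading-strand polymerase, rose by 0.78. Tk1, thymidine kinase, and Rrm1, the large subunit of ribonucleotide reductase, rose by 0.93 each, and both lost the call without leukaemia 75 (adjusted p = 0.057 and 0.067). Of 14 replication-dependent histone genes 7 rose and 0 fell (2, 2 and 7 without leukaemias 73, 75 and 79). H1f1, a linker histone gene, rose by nearly the same amount in each leukaemia (1.14, 1.15 and 1.16, adjusted p = 8.37e-05). Regulators of the cycle split 3 higher and 3 lower of 19. The kinase Cdk4 rose by 0.86, and the antiproliferative Btg1 and Btg2 fell by 0.72 and 0.57. Cdk4 did not pass without leukaemia 75 or 79 (adjusted p = 0.0943 and 0.0763) and Btg2 without leukaemia 75 (0.0723). With the block as a random term 0 of these regulators were higher and 2 lower. Cdkn1a, the p21 inhibitor, fell by 0.78, and its call was lost without leukaemia 73, 75 or 79 (adjusted p = 0.11, 0.063 and 0.14). The mitosis list had 10, 4 and 29 members higher without leukaemias 73, 75 and 79, and the S phase list 8, 2 and 19. Without the pairing 0 mitosis genes and 1 S phase gene passed.

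Promoters of 3 cell cycle genes are shown with letters that many promoters of the mitosis list share. The shares below describe the promoters of the listed genes and are no test of the differences between the fractions. Cdk1 lies at chr10:69352893-69353162 on the minus strand, Ccnb2, which encodes cyclin B2, at chr9:70421535-70421804 on the minus strand, and Rrm1 at chr7:102441445-102441714 on the plus strand (GRCm38.p6, each printed 5′ to 3′ along its gene). In Cdk1 and Ccnb2 the capitals mark CCAAT, the box bound by NF-Y, and TTTGAA, known as the cell cycle genes homology region, on either strand, and neither contains the other. The CCAAT matches of Cdk1 are on the opposite strand and are printed as the reverse complement. In Rrm1 they mark TTCCCGCC, of the type bound by E2F factors, 67 bases before the start site.
Cdk1: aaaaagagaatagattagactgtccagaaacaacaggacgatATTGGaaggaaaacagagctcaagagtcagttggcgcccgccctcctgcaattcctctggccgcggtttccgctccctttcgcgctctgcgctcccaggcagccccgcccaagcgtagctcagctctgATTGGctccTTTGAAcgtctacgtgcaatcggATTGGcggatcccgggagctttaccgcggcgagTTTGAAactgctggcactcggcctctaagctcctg
Ccnb2: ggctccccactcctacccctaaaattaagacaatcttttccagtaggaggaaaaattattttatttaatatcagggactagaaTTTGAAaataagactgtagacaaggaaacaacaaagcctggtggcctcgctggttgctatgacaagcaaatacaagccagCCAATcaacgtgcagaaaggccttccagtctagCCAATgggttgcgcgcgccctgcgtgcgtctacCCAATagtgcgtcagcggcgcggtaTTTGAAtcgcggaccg
Rrm1: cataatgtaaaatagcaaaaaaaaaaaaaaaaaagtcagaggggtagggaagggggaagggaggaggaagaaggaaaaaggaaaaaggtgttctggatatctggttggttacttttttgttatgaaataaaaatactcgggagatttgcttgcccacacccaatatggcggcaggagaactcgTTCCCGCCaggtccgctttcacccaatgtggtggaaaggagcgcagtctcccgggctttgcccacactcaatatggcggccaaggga
Cdk1 held 3 CCAAT and 2 TTTGAA matches, the last starting 15 bases before the start site, and Ccnb2 held 3 and 2. CCAAT was found in 24 of 31 promoters of 29 mitosis genes (77.4%) against 37.4% of all promoters, and TTTGAA in 26 (83.9%) against 17.9%. Both were present in 22 of the 31 (71.0%), against 6.95% of all promoters and 8.67% of promoters of genes that were higher. Among promoters of genes that were higher, CCAAT was found in 41.0% and TTTGAA in 15.9%. In S phase promoters CCAAT was found in 23 of 37 (62.2%), TTTGAA in 5 of 37 (13.5%) and TTCCCGCC in 6 of 37 (16.2%) against 2.19% of all promoters and 0 of 31 mitosis promoters. Ccnb2 was chosen for its sequence; it rose by 0.51 (adjusted p = 0.0352), a call lost without leukaemia 73, 75 or 79 (adjusted p = 0.130, 0.212 and 0.0737).

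Genes of MYC and ribosome biogenesis were higher, with 23 of 33 up, 0 down and a median of 0.48. Dkc1, the pseudouridine synthase of the nucleolus, was 7.34, 7.56 and 7.47 in positive and 6.66, 6.42 and 6.69 in negative fractions (0.86 ± 0.11, adjusted p = 0.00128). Nop58, a core protein of box C/D small nucleolar particles, was 7.04, 7.56 and 7.65 against 6.52, 6.47 and 6.91 (0.79 ± 0.11, adjusted p = 0.0021). Mybbp1a, Noc2l, Wdr43 and Gnl3, all nucleolar proteins, rose by 0.82, 0.78, 0.70 and 0.67, and these 6 passed without each wild-type leukaemia in turn. Myc itself rose by 0.75, least in leukaemia 79 (0.29), with adjusted p of 0.093 and 0.098 without leukaemia 73 or 75. Of 62 small nucleolar RNA genes 8 rose (12.9%, against 7.96% of all genes) and 1 fell. Without leukaemias 73, 75 and 79 the biogenesis list had 11, 8 and 16 members higher, and without the pairing 1.

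The promoter of Nop2, a ribosomal RNA methyltransferase of this list, is shown with the E-box CACGTG, the letters bound by MYC and the same on both strands, in capitals. It lies at chr6:125131633-125131902 on the plus strand (GRCm38.p6), and the match starts 60 bases before the start site.
Nop2: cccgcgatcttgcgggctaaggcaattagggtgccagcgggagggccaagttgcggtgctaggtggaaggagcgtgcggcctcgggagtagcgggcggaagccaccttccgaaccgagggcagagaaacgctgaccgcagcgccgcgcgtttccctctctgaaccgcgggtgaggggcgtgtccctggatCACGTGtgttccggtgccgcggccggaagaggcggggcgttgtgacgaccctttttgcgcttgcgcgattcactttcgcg
CACGTG was found in 7 of 33 promoters of this list (21.2%), in 11.7% of promoters of genes that were higher, in 6.37% of those of genes that were lower and in 7.15% of all promoters. Nop2, chosen for its sequence, rose by 0.39 (adjusted p = 0.0239), a call lost without leukaemia 73, 75 or 79 (adjusted p = 0.126, 0.0742 and 0.125).

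Cytosolic ribosomal protein genes, 10 of 28 higher and 0 lower with a median of 0.40, included Rpl14 at 0.80 and Rpl32 at 0.62. Few of these calls held in other fits: 0, 1 and 1 members passed without leukaemias 73, 75 and 79, 0 without the pairing, 5 under quantile normalization and 4 when the probe sets of a gene were averaged. Ribosomal protein genes have many near-identical pseudogenes, so their probe sets may share signal.

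Mitochondrial and secretory pathway genes were higher where they passed. Of 20 genes of the citrate cycle and related mitochondrial enzymes 9 rose and 0 fell (median 0.35), and 4, 2 and 6 rose without leukaemias 73, 75 and 79. Idh2, mitochondrial isocitrate dehydrogenase, was 7.71, 8.06 and 8.28 in positive and 6.67, 6.92 and 7.33 in negative fractions, with differences of 1.04, 1.14 and 0.96 (adjusted p = 0.000458). Shmt2, of mitochondrial serine metabolism, rose by 0.93 and Suclg2, a succinyl-CoA ligase subunit, by 0.59, and the call of Shmt2 was lost without leukaemia 75 (adjusted p = 0.076). Of 34 oxidative phosphorylation genes 13 rose and 0 fell (median 0.28), led by the complex I subunit Ndufs8 at 0.64. The count was 1, 0 and 3 without leukaemias 73, 75 and 79, 6 under quantile normalization and 0 without the pairing. Genes of the endoplasmic reticulum and secretion rose in 9 of 26 cases and fell in 0 (median 0.31), among them the chaperone partner Sdf2l1 at 0.76 and the translocon-associated Ssr2 at 0.63. Their count was 4, 3 and 6 without leukaemias 73, 75 and 79, 3 with the block as a random term and 0 without the pairing. Redox genes rose in 5 of 25 cases, led by the glutathione transferase Gsto1 at 0.87 (adjusted p = 0.000981), and fell in 0, with 1, 1 and 3 higher without leukaemias 73, 75 and 79. Glycolysis and hypoxia genes split 6 higher and 2 lower of 22, with Tpi1 at 0.67 and the glucose transporter Slc2a3 at -0.63, and all 6 named members lost the call without leukaemia 75 (adjusted p 0.063 to 0.15). Of 22 cholesterol and lipid genes 2 rose (9.09%, against 7.96% of all genes) and 0 fell. Fasn, fatty acid synthase, rose by 0.71 and Fdft1, of sterol synthesis, by 0.45. The call of Fdft1 was lost without leukaemia 73 or 75 (adjusted p = 0.182 and 0.142).

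Iron and haem genes went in both directions, with 5 of 21 higher and 3 lower. Without leukaemia 73 the counts were 2 and 1, and without leukaemia 75 they were 1 and 1. Fech, the enzyme that inserts iron into haem, was 7.73, 8.02 and 8.12 in positive and 7.04, 6.92 and 7.15 in negative cells (0.92 ± 0.10, adjusted p = 0.000623). Slc11a1, the phagosomal metal transporter of macrophages and neutrophils, was 5.61, 5.84 and 5.83 against 6.87, 6.98 and 7.38 (-1.32 ± 0.12, adjusted p = 0.00029). Alas1, the first enzyme of haem synthesis, rose by 0.54, while haem oxygenase Hmox1 and ferritin heavy chain Fth1 fell by 0.66 and 0.56. These 3 calls were lost without leukaemia 73 or 75 (adjusted p 0.06 to 0.12).

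Inflammatory genes that passed were lower, immediate early and stress genes were mostly lower, and no gene of the type I interferon list passed. Of 29 immediate early and stress genes 11 fell and 2 rose (median -0.30), including Junb at -0.51 and Dusp1, a MAP kinase phosphatase, at -0.57. The heat shock genes Dnajb1 and Hsp90aa1 rose by 0.42 and 0.41. None of these 4 passed without leukaemia 73 or 75 (adjusted p 0.053 to 0.26), and the list then had 3 and 1 members lower. Of 29 inflammatory genes 7 fell and 0 rose (median -0.16), and 1, 1 and 5 fell without leukaemias 73, 75 and 79, 3 with the block as a random term and 0 without the pairing. Cxcl2, a neutrophil chemokine, fell by 0.99 and Il1b by 1.11, and the call of Il1b was lost without leukaemia 73 or 75 (adjusted p = 0.059 and 0.072). Of 20 interferon response genes 0 rose and 0 fell in limma, with a median of -0.07 and 0 calls in the fit without the pairing. At an unadjusted p under 0.05 were 3 of these 20, against 5031 of all 19152 genes tested. Without leukaemias 73, 75 and 79 the list had 0, 0 and 1 members lower, the last being Cmpk2 (-0.54, adjusted p = 0.0198). Irf7, a master regulator of the interferon response, differed by -0.33 (95% interval -0.65 to -0.01, adjusted p = 0.177). Ifitm and Schlafen genes, which interferon also induces, fell in 5 of 11 cases (4, 2 and 3 without leukaemias 73, 75 and 79). Ifitm6, a family member of myeloid cells, was 8.12, 6.91 and 6.81 against 9.67, 9.20 and 9.02, and Slfn2 fell by 1.03 (both adjusted p = 0.00029). Of 16 BCL2 family and survival genes 3 fell and 0 rose, with Mcl1 at -0.31, and 0 passed without leukaemia 73, 75 or 79 (adjusted p 0.053 to 0.22). Mcl1 and Bcl2l11 also did not pass with each array centred on its median (adjusted p = 0.0771 and 0.0653).

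Genes of DNA methylation and chromatin were higher where they passed, with the exception of Kdm6b. In the DNA methylation list 6 of 21 rose and 0 fell, and 1, 1 and 4 rose without leukaemias 73, 75 and 79. The call kept without leukaemia 73 or 75 was that of Idh2 (adjusted p = 0.00698 and 0.00926), which stands in the citrate cycle list too. Dnmt1, the maintenance methyltransferase, was 9.00, 9.13 and 9.24 in positive and 8.34, 8.40 and 8.78 in negative fractions (0.62 ± 0.14, adjusted p = 0.0159), and its partner Uhrf1 rose by 0.78. Dnmt1 and Uhrf1 stand in the S phase list too, and both calls were lost without leukaemia 73 or 75 (adjusted p 0.085 to 0.12). Dnmt3b, the de novo enzyme that the series overexpressed in its other leukaemias, was 6.66, 6.41 and 6.33 in positive and 6.25, 6.38 and 6.10 in negative cells. It did not pass (0.23 ± 0.12, 95% interval -0.05 to 0.50, adjusted p = 0.279). In the polycomb and trithorax list 5 of 30 rose (16.7%, against 7.96% of all genes) and 1 fell (3.33%, against 3.05%). The polycomb core genes Suz12, Ezh2 and Rbbp7 rose by 0.67, 0.61 and 0.75, and the demethylase Kdm6b fell by 0.47. None of the 6 named members of that list passed without leukaemia 73 or 75 (adjusted p 0.051 to 0.22).

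Markers of other cells that the sort could hold were described by 8 lists with 118 genes tested. Of these 2 rose (1.69%, against 7.96% of all genes) and 3 fell (2.54%, against 3.05%). The lists of B cells, erythroid cells, megakaryocytes and endothelium or stroma had 0 calls in limma. At an unadjusted p under 0.05 were 1 of 16, 2 of 13, 4 of 14 and 4 of 20 of their genes. Over all 19152 genes tested this number was 5031. Without leukaemia 79, Itgb3 of megakaryocytes and Pecam1 of endothelium passed as lower (-0.69 and -0.84, adjusted p = 0.0344 and 0.0216). With the block as a random term 1 megakaryocyte gene was lower. Cd79b of B cells passed as higher with each array centred on its median (adjusted p = 0.0482). The B cell list also had 1 gene higher with the 6 wild-type arrays alone and without leukaemia 81 or 85. Mcpt8, a basophil protease, was 7.38, 7.94 and 6.61 in positive and 6.10, 6.72 and 5.69 in negative cells (1.14 ± 0.12, adjusted p = 0.000458), while the mast cell gene Cpa3 differed by 0.04 (adjusted p = 0.88). The T and NK cell gene Prf1 and the dendritic genes Cd80 and Cd83 fell by 0.46, 0.73 and 0.43, and none kept its call in all fits without 1 wild-type leukaemia. Prf1 did not pass without leukaemia 73, 75 or 79 (adjusted p 0.061 to 0.15), Cd80 without leukaemia 73 (0.0543) and Cd83 without leukaemia 75 or 79 (0.149 and 0.0669). The eosinophil gene Siglecf is given above. Array medians were 5.56 to 5.66. On all 6 arrays Cd79a of B cells (5.28 to 5.54), Cd3e of T cells (4.68 to 4.90), Epx of eosinophils (5.34 to 5.63), Cdh5 of endothelium (5.02 to 5.40) and H2-Aa of antigen-presenting cells (4.11 to 4.96) were at or below that range. Ncr1 of NK cells (5.44 to 5.78) lay around it. Siglech of plasmacytoid dendritic cells (5.74 to 6.12), Col1a1 of stroma (6.05 to 6.28) and Gp9 of megakaryocytes (6.28 to 7.37) lay above it, and no marker was at 0. Leukaemia 79 stood apart in Prg2, an eosinophil granule protein, at 8.39 in positive and 9.75 in negative cells against 6.30 to 6.46 on the other arrays, and in Cpa3, at 8.58 and 8.46 against 5.81 to 6.34. Pf4, of megakaryocytes, was 6.97 in the negative cells of leukaemia 73 and 5.25 to 5.57 on the other arrays. Summed linear intensity of 10 eosinophil genes ranged from 495 to 912 in positive and from 513 to 1409 in negative fractions. That of 15 megakaryocyte genes ranged from 877 to 994 and from 976 to 1470. The sums of 14 erythroid genes were 650 to 685 in positive and 704 to 890 in negative fractions, without overlap. Those of 22 T and NK cell genes were 970.4 to 1099.5 and 1157.1 to 1211.7, also without overlap. In the other lists of such cells the sums of both fractions overlapped. The part of such cells in the results was not tested.

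The 3 leukaemias differed in which maturation genes fell. Median differences of the late neutrophil list were -0.36, -0.67 and -0.94 in leukaemias 73, 75 and 79, and those of the monocyte list -0.43, -0.33 and -0.17. Over all genes tested the medians were -0.01, -0.01 and -0.03. Among the 74 genes at least 2-fold lower, leukaemia 79 had the smallest difference in 46, and among the 37 genes at least 2-fold higher in 20. Wfdc17, a secreted protein of macrophages, was 5.42, 5.46 and 7.29 in positive and 8.51, 8.28 and 7.68 in negative cells. Wfdc17 thus differed by -3.09, -2.82 and -0.39, and its adjusted p of 0.00671 was 0.066 and 0.079 without leukaemia 73 or 75. Gpnmb, a macrophage glycoprotein, differed by -2.18, -1.70 and -0.17 and Clec4e, a lectin receptor, by -1.83, -1.68 and -0.02. Both were picked after their values were seen, and both lost the call without leukaemia 73 (adjusted p = 0.104 and 0.196) or 75 (0.110 and 0.195). The stefins had the opposite order, since Stfa3 differed by -1.59, -1.94 and -4.69, with a level of 9.94 in the negative cells of leukaemia 79 against 6.65 and 6.73 in those of leukaemias 73 and 75. In the mitosis list the median was 0.69, 0.80 and 0.34, and that of leukaemia 79 was again the smallest. With 1 pair per leukaemia these differences between leukaemias have no test.

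**Figure D4:**
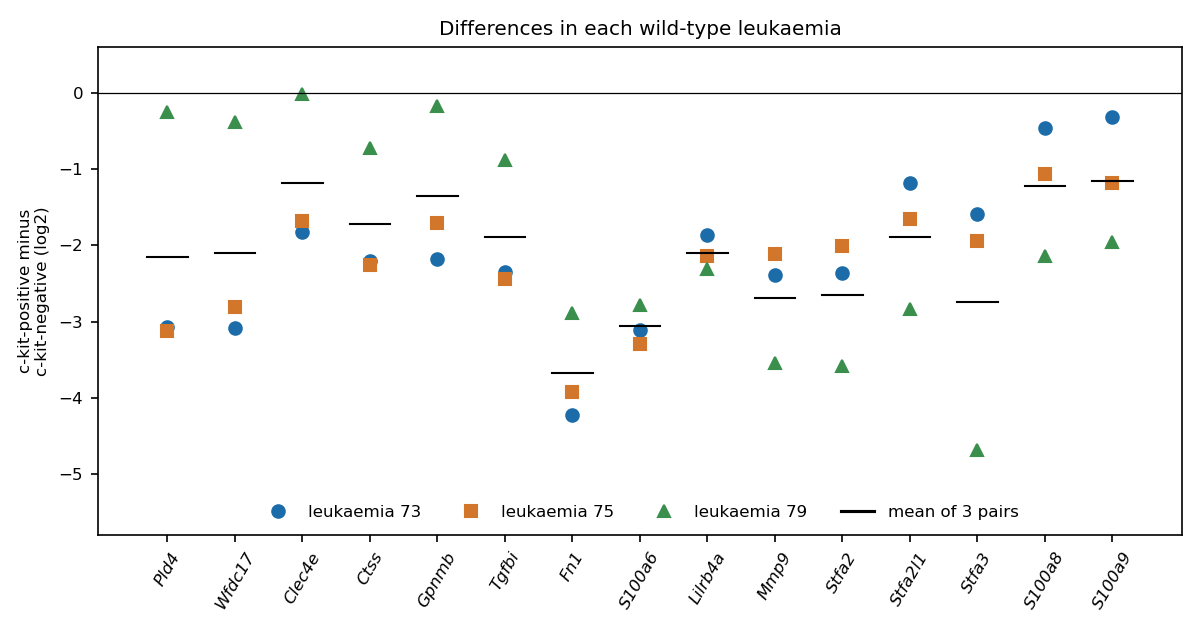
Difference between c-kit-positive and c-kit-negative cells (log2) of 15 genes in each wild-type leukaemia, with a bar at the mean of 3 pairs. From Pld4 to Tgfbi the green triangles of leukaemia 79 lie above those of leukaemias 73 and 75, and from Mmp9 to S100a9 they lie below them.

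The same contrast in the 3 Dnmt3b-labelled leukaemias, which share no array with the wild-type pairs but share the fit's estimate of the spread, ran mostly in the same direction. There 1666 genes (8.70%) passed, 1139 higher (5.95%) and 527 lower (2.75%). Of the 2109 wild-type calls 2018 (95.7%) had the same sign there, against 72.5% of all genes tested. The 1038 genes called in both groups made up 49.2% of the wild-type calls and 62.3% of the Dnmt3b-label calls. The difference between the label groups, tested as an interaction, passed for 0 genes (0%) in limma, with a smallest adjusted p of 0.157 and 1102 genes at an unadjusted p under 0.05. That test also gave 0 genes without the pairing, and 1, 1 and 2 without leukaemias 73, 79 and 85. Mpo, Fn1, S100a6 and Mmp9 differed by 2.56, -3.51, -3.15 and -2.75 in the Dnmt3b-labelled leukaemias, against 3.15, -3.68, -3.06 and -2.69 in wild type.

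Several differences were unequal in size without passing that test. Cxcr2, with the smallest interaction p, was lower by 0.42 in wild-type and by 1.66 in Dnmt3b-labelled leukaemias, where negative cells reached 8.54, 8.23 and 8.06 against 6.90, 6.96 and 7.03 in wild type (adjusted p = 0.157). Smyd2, a lysine methyltransferase, differed by 0.71, 0.87 and 0.80 in the wild-type pairs and by -0.08, -0.09 and 0.06 in the Dnmt3b-labelled pairs (adjusted p of the interaction 0.23). Id2 fell by 1.68 in wild type and differed by -0.49 in the other group, where its adjusted p was 0.051 (interaction 0.23). Nedd4 rose by 1.70 and 0.78. Conversely, the mitosis list had a median of 0.59 in wild type and 1.14 in the Dnmt3b label, with 29 and 37 of 37 genes higher. Its members' interaction p was under 0.05 unadjusted in 28 of 37, against 1102 of all 19152 genes tested, and passed adjustment in 0. The 37 genes were measured on the same arrays, so these 28 are not independent of each other. For ribosome biogenesis the order was the reverse, with 23 of 33 higher and a median of 0.48 in wild type and 6 of 33 and 0.19 in the Dnmt3b label. S100a8 and S100a9, which fell in wild type, differed by -0.17 and 0.11 in the Dnmt3b label (adjusted p = 0.74 and 0.84, interaction 0.75 and 0.69).

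**Figure D5:**
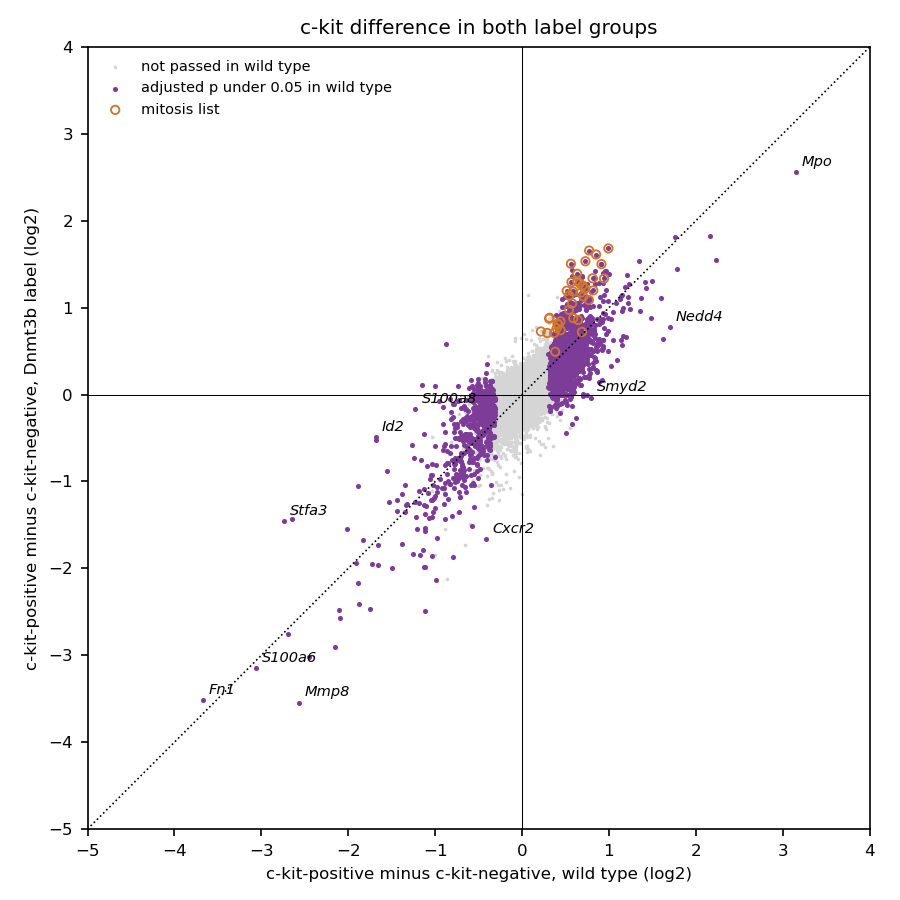
Difference between c-kit-positive and c-kit-negative cells (log2) of 19152 genes in the wild-type leukaemias (horizontal) and in the Dnmt3b-labelled leukaemias (vertical), with equal values on the dotted line. Purple points are the 2109 wild-type calls, of which 2018 have the same sign on both axes, and orange rings, the mitosis list, lie mostly above the dotted line.

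Of 237 microRNA genes tested 5 rose and 6 fell, a share below the 11.0% of all genes. Mir1949 was 6.03, 5.60 and 6.60 in positive and 4.72, 4.84 and 5.07 in negative fractions (1.20 ± 0.14, adjusted p = 0.000654). Mir1927 and Mir3088 rose by 0.66 and 0.60. Mir218-1, Mir669a-3 and Mir598 fell by 0.55, 0.55 and 0.49, and these 3 calls and that of Mir3088 were lost on leaving out a wild-type leukaemia (highest adjusted p 0.077 to 0.17). The array measured the gene and did not tell the arms of the hairpin apart. The mature sequences of the members that RefSeq's table holds are shown to identify them, with the seed, bases 2 to 8, in capitals.
mmu-miR-218-5p: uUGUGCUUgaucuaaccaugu
mmu-miR-218-1-3p: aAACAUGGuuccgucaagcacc
mmu-miR-3088-5p: gCUAUGCAguuguucaugagcu
mmu-miR-3088-3p: uUCAUGAGcagcugcaaaggugu
The 4 seeds differ from each other.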

How the data were processed

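Sorted c-kit-positive and c-kit-negative cells of 6 leukaemias were measured on 12 Affymetrix arrays, 3 in each of 4 groups taken from the labels. The deposited values are log2 intensities, made by the authors with RMA in Affymetrix Expression Console per the submitters' processing notes, which give no versions; they have no missing value, and 0 columns belong to other samples. The genome build of the probe sets is not given in the sources used here.

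Of 41345 probe sets, 23521 carry 1 gene symbol, 1814 carry several and 16010 are unnamed here. Symbols were updated through RefSeq (23328 matched), and 22180 genes resulted, of which 1082 had over 1 probe set and kept the probe set with the highest mean. A low-value filter at log2 4.61, below which 25% of all values lie, had to be exceeded on 3 or more arrays; 19152 genes were tested and 3028 removed. limma 3.58.1 in R 4.3.3 fitted all 12 arrays with the leukaemia number as a block and the c-kit effect within each label group, with Benjamini-Hochberg adjustment over all genes. The block follows the number that both fractions of a leukaemia carry. The deviations of both fractions from their group means correlated in every pair (r = 0.279, 0.286 and 0.315 in wild type, 0.587, 0.317 and 0.601 in the Dnmt3b label). For every pair of different leukaemias r was negative. Deviations cancel over the 3 arrays of a group, so positive r within pairs makes r between leukaemias negative on average. A p-value in the text is limma's unless another test is named.

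The comparison and its 42 gene lists (1103 symbols, 932 tested) were chosen with earlier results of these data known. Named genes are the 4 markers, the 14 largest rises and 14 largest falls among calls with 1 sign in all pairs (no predicted or small RNA genes), 6 microRNAs, per list the 6 genes with the smallest p and any call against the list's median, and the leading genes of the Dnmt3b label and of the interaction; other genes were chosen for their role or their promoter after their values were seen. Promoters, motifs and microRNAs come from RefSeq (GRCm38.p6) and were chosen after seeing the data. The fit was tested on simulated data. Alternatives were the block, scaling, filters, probe set choice, prior and leaving out each leukaemia. The number of arrays limits the precision.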

Additional observations from a re-analysis of the deposited data

How the results depend on the processing

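The pairing of fractions by leukaemia had the largest effect. Without the replicate block the wild-type comparison called 147 genes in place of 2109, and that of the Dnmt3b label 360 in place of 1666; all 147 were among the 2109. With the block as a random term, 1524 and 1299 genes passed. Leaving out 1 leukaemia gave 434 to 2415 wild-type calls, with the lowest counts without leukaemia 75 (434), 73 (582) and 79 (1205), and 745 to 1683 calls in the Dnmt3b label, with the lowest without leukaemias 83 (745) and 85 (1013). The interaction called 0 to 2 genes. Scaling, filters, the mean of a gene's probe sets and the prior moved the wild-type count between 1686 and 2460. No wild-type call changed sign under any alternative. Only scaling and the mean of probe sets could have turned the 2102 calls with the same sign in all pairs. The other alternatives leave these differences unchanged or average fewer pairs. Of 265 named genes 200 passed, 82 of them without each wild-type leukaemia and 40 in every alternative. Among genes named by the rule, values that did not pass and turned sign were Cd209a (-0.074 with the mean of probe sets) and, over the fits without 1 leukaemia, Mrps25 (-0.034 to 0.074, with the turned sign without leukaemia 79), Cd2 (-0.252 to 0.0071, with the turned sign without leukaemia 79), Pf4 (-0.911 to 0.068, with the turned sign without leukaemia 73) and Mrgprb1 (-0.057 to 0.161, with the turned sign without leukaemia 73). Of the genes given for their role with a difference, Cd34 (0.043) and Cpa3 (-0.054) turned sign without leukaemia 73, and Cpa3 (-0.0058) without leukaemia 79. The cause of these changes was not tested.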
